A study of Homo sapiens with 5 samples.

Results

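The 10 genes described here encode core parts of the machinery that degrades RNA in human cells: CNOT1, CNOT7, PARN, DCP2, XRN1, XRN2, DIS3, EXOSC3, ZFP36L1 and ZFP36L2. They were taken by Ensembl gene identifier, and all 10 had a row among the 20001 rows with an identifier in the deposited table of counts. Of these 10 genes, 9 passed the filter on low counts, as did 13400 genes in all, and ZFP36L2 had 0 counts in every library. The symbols come with the gene list, since the table gives identifiers only.

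Nascent RNA had been profiled by PRO-seq, a run-on assay in which polymerases caught on DNA add biotin-tagged nucleotides to the RNA they are making, and reads of this RNA report transcription in progress and not the amount of RNA that has accumulated. The cells were HEK293T, a human embryonic kidney line with the SV40 large T antigen. They carried a landing pad, that is, an engineered site for integrating constructs into the genome, with the CAG promoter (3 libraries) or the PGK promoter (2 libraries). CAG is a strong composite promoter and PGK comes from a housekeeping gene of glycolysis. All cells were grown in the same medium, and the labels name no drug or other treatment. The labels call the lines monoclonal without giving the number of clones per promoter, so that promoter and clone cannot be told apart. They also do not say whether replicates came from separate cultures. The p-values therefore reflect only how these libraries varied, which may be technical variation. The study paired these libraries with RNA-seq to measure RNA stability, and RNA-seq was not analysed here, so all values below are of transcription and none are of RNA or protein amount.

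Most messenger RNAs are destroyed in a set order. The poly(A) tail is shortened first, by deadenylases such as the CCR4-NOT complex. The cap is then removed by the DCP2 enzyme, and the body of the RNA is digested from its 5′ end by XRN1 or from its 3′ end by the RNA exosome. Sequence-specific proteins such as ZFP36L1 and ZFP36L2 bind AU-rich elements in the 3′ untranslated region of short-lived messengers and bring the deadenylases to them.

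The nascent counts do not show which annotated start of a gene was used. Promoter sequence around annotated starts is shown for 4 of the genes. These were chosen because they held a match to CCGGAAG or TGACGTCA, both described below. In the RefSeq promoter table (GRCh38.p14), 7 of the 10 genes had a window of 300 bases, 250 before and 50 after a start. CNOT1, CNOT7 and ZFP36L2 had no window, and DCP2, XRN1 and EXOSC3 had a window without either match. The stretches below are 30 bases each, 5′ to 3′ on the gene's strand, with capitals marking the match to CCGGAAG (the core bound by ETS factors) in PARN and DIS3 and to TGACGTCA (the cyclic AMP response element) in XRN2 and ZFP36L1.
PARN (chr16:14630238-14630267, minus strand): gcgcgctgtttCCGGAAGtcgcggccggcg
DIS3 (chr13:72782121-72782150, minus strand): ccgCCGGAAGtcaactctcccggatgttcc
XRN2 (chr20:21303266-21303295, plus strand): cggcggcgccgTGACGTCActtccgttctc
ZFP36L1 (chr14:68793450-68793479, minus strand): agtggaatgagTGACGTCAcagccgcgctc
The matches begin at base 5 of the transcribed part in PARN, at position -247 from the start in DIS3, at -54 and -221 from the 2 annotated starts of XRN2, and at -52 in ZFP36L1, where only 1 of 2 annotated starts has the match in its window. Both strands were searched. CCGGAAG was found in 10.3% and TGACGTCA in 1.85% of all 35116 promoter windows. GGGCGG (the GC box) was found in 5 of the 7 genes and in 45.0% of all windows, and CCAAT in 3 of the 7 and in 34.6% of all windows. TATAAA was found in none of the 7 genes and in 11.5% of all windows. A gene was counted if any of its windows matched, and XRN2, EXOSC3 and ZFP36L1 had 2 windows each. The counts of genes and the shares of windows are therefore not in the same unit. The matches describe letters only, and binding was not measured.

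The libraries held 4873883 to 5864157 counts in the CAG line, against 5582070 and 3712105 counts in the PGK line. Spread was larger in the PGK pair: the SD of the log2 difference over all tested genes was 0.224 to 0.233 between CAG libraries and 0.329 between the PGK libraries. Over the 9 measured decay genes that SD was 0.0384 to 0.0678 between CAG libraries and 0.267 between the PGK libraries. Within the PGK pair ZFP36L1 stood apart, with replicate 2 at 0.671 times replicate 1. The other genes ran from 0.976 times (PARN) to 1.28 times (DCP2). PGK replicate 2 was above PGK replicate 1 in 7 of the 9 genes. Over all tested genes the median ratio of replicate 2 to replicate 1, after scaling, was 1.006. The share of all tested genes with replicate 2 higher was not taken. Values without 1 PGK library are given below where they differ most.

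Of the measured decay genes, 1 passed the test of a difference between the lines. PARN fell by 0.35 on the log2 scale in the CAG line, a level 21.3% lower, and none of the other 8 measured genes passed the test. Calls used edgeR's quasi-likelihood test of CAG over PGK on all 13400 genes, with a Benjamini-Hochberg adjusted p under 0.05. By this rule 43.4% of all tested genes were called, and 20.7% were called lower in the CAG line, beside which the 1 of 9 decay genes stands. These shares depended on the method. DESeq2, another test for counts, called 4054 of the same 13400 genes, against 5818 in edgeR, and of the 9 again PARN alone. That setting was added after the data had been seen. Across the 9 genes the median log2 fold change was -0.09, against a median of -0.0046 over all tested genes. The median size of the change was 0.11 in the 9 genes and 0.25 in all tested genes, and 8 of the 9 lay below the median size of all tested genes. The tested genes were not matched to the 9 in level, so these sizes do not show whether the decay genes were unusually steady. Without PGK replicate 1 the median size in the 9 genes was 0.22 and their median log2 fold change -0.19, against a median size of 0.29 over all genes then tested. Without PGK replicate 2 these medians of the 9 genes were 0.04 and -0.01, so that both rested on which PGK library was kept. Point estimates were below 0 for 8 genes and above 0 for ZFP36L1. As upper-quartile scaling put CNOT7 and DIS3 at 0.0022 and 0.0019, no common direction is drawn from this count.

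The count of 1 gene rested in part on PGK replicate 1. Without that library 5 genes were called: CNOT1, PARN, DCP2 and XRN2 as lower in the CAG line and ZFP36L1 as higher. In that fit 41.8% of all tested genes were called, beside which the 5 of 9 stand. The lone PGK library was there assumed to vary like the CAG libraries. Without PGK replicate 2, or without any 1 CAG library, PARN was the only decay gene called.

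**Figure D1:**
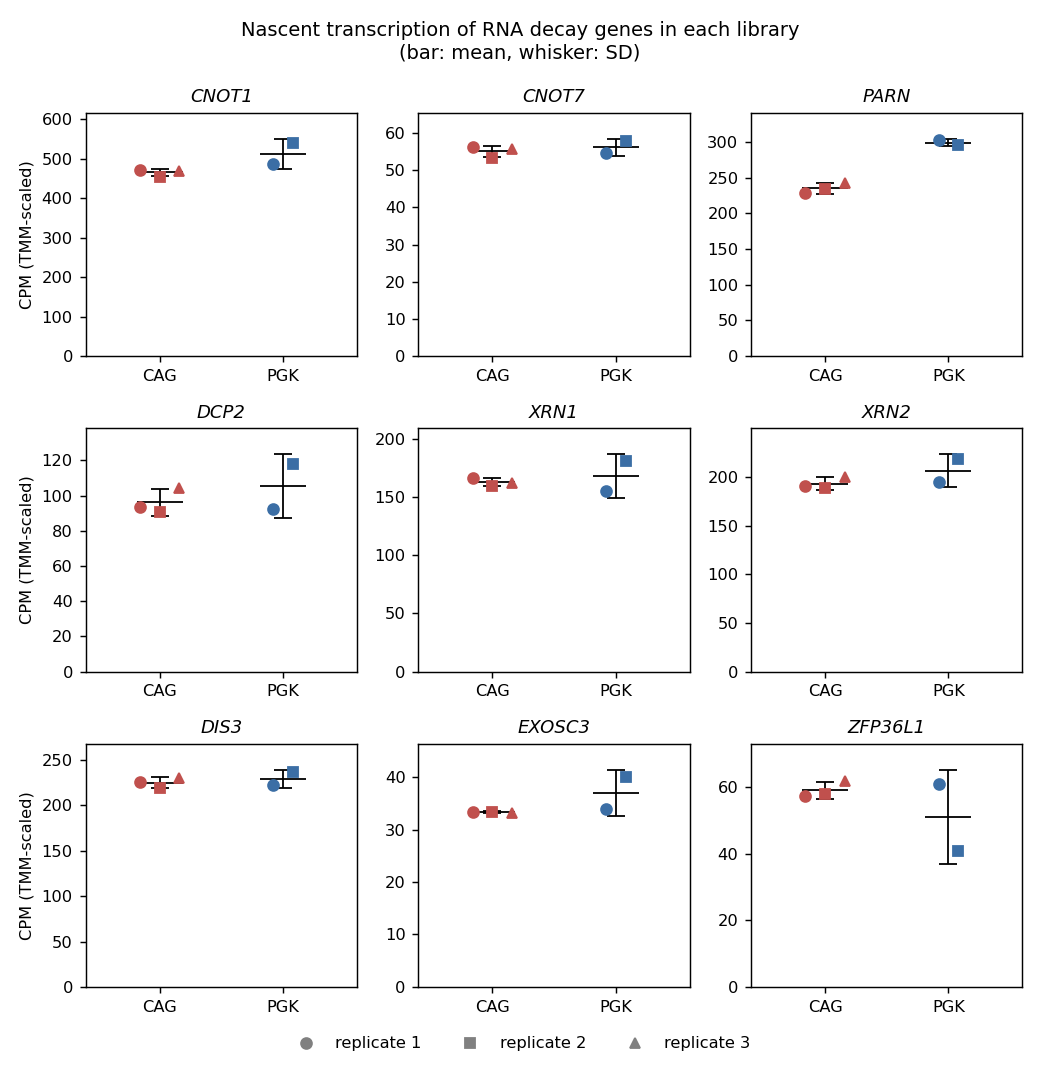
Level of each measured decay gene in every library, as CPM (scaled counts, vertical axes from 0, different for each gene), with the 3 CAG libraries left of the 2 PGK libraries, bars at the mean and whiskers of 1 SD. The CAG libraries lie below both PGK libraries for PARN, CNOT1 and EXOSC3, and PGK replicate 2 lies apart from replicate 1 for DCP2 and ZFP36L1.

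Among the deadenylases, PARN showed the clearest difference. PARN is a poly(A)-specific ribonuclease that trims the tails of messengers and the ends of many small non-coding RNAs. PARN (ENSG00000140694) had 1121, 1186 and 1427 counts in the CAG libraries, against 1706 and 1053 counts in the PGK libraries. Expressed as CPM, that is, per 1e6 counts of a library size corrected by TMM (edgeR's trimmed-mean scaling), these were 228, 235 and 243 CPM in the CAG line, against 302 and 295 CPM in the PGK line, so that every CAG library lay below both PGK libraries. The means were 235 ± 7.41 CPM in the CAG line (SD, n = 3) and 299 ± 5.12 CPM in the PGK line (SD, n = 2). PARN had a log2 fold change of -0.35 with a standard error of 0.07 and a 95% interval of -0.50 to -0.19, and the edgeR adjusted p was 0.000470. PARN was also the decay gene whose PGK replicates were closest to each other, with replicate 2 at 0.976 times replicate 1. Its change was of ordinary size for this comparison, as 61.8% of all tested genes changed by no more than it did.

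CNOT1 (ENSG00000125107), the scaffold on which the CCR4-NOT complex is built, was transcribed at 473, 455 and 470 CPM in the CAG libraries, against 486 and 539 CPM in the PGK libraries. The groups did not overlap, although the highest CAG library and the lower PGK library were close. Its log2 fold change was -0.14 (95% interval -0.30 to 0.02) and did not pass the test (edgeR adjusted p = 0.159). It was -0.22 without PGK replicate 1 (adjusted p = 0.00237 in edgeR) and -0.06 without PGK replicate 2 (adjusted p = 0.469 in edgeR), so that the PGK library used decided the call.

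CNOT7 (ENSG00000198791), a catalytic subunit of CCR4-NOT that removes adenosines from the tail, had 56.3, 53.4 and 55.6 CPM in the CAG libraries, against 54.6 and 57.8 CPM in the PGK libraries. The 2 groups overlapped. CNOT7 differed by -0.02 on the log2 scale (edgeR adjusted p = 0.874), and the 95% interval of -0.21 to 0.17 leaves room for a difference of 13.4% down or 12.2% up.

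DCP2 (ENSG00000172795) is the enzyme that cleaves the cap and so opens the messenger to digestion from the 5′ end. It had 93.4, 90.4 and 104 CPM in the CAG libraries, against 92.4 and 118 CPM in the PGK libraries. The CAG libraries lay around PGK replicate 1 and below PGK replicate 2. For DCP2 the log2 fold change was -0.11 (95% interval -0.29 to 0.08; edgeR adjusted p = 0.351). It was -0.30 without PGK replicate 1 (edgeR adjusted p = 0.00344) and 0.06 without PGK replicate 2 (edgeR adjusted p = 0.588), so that its direction was set by which PGK library was kept.

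XRN1 (ENSG00000114127), the cytoplasmic exonuclease that degrades decapped messengers from the 5′ end, had 166, 160 and 162 CPM in the CAG libraries, against 155 and 181 CPM in the PGK libraries. All 3 CAG libraries lay between the PGK libraries. XRN1 differed by -0.04 on the log2 scale (95% interval -0.20 to 0.12; edgeR adjusted p = 0.709), by -0.16 without PGK replicate 1 and by 0.07 without PGK replicate 2.

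XRN2 (ENSG00000088930) is the nuclear relative of XRN1 and digests the RNA that remains on the polymerase after cleavage at the poly(A) site, a step of transcription termination. It had 190, 188 and 200.3 CPM in the CAG libraries, against 195 and 218 CPM in the PGK libraries. CAG replicate 3 lay between the PGK libraries and the other CAG libraries lay below both. The log2 fold change was -0.09 (95% interval -0.25 to 0.06; edgeR adjusted p = 0.342), and without PGK replicate 1 it was -0.19 with an edgeR adjusted p of 0.0453. Without PGK replicate 2 it was -0.01.

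DIS3 (ENSG00000083520) is the catalytic subunit of the nuclear RNA exosome, with both exonuclease and endonuclease activity. It had 226, 219 and 230.04 CPM in the CAG libraries, against 222 and 236 CPM in the PGK libraries, with overlap between the groups. DIS3 differed by -0.02 on the log2 scale (95% interval -0.18 to 0.13; edgeR adjusted p = 0.822), by -0.08 without PGK replicate 1 and by 0.02 without PGK replicate 2.

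EXOSC3 (ENSG00000107371) is a cap subunit of the exosome core that takes part in guiding RNA into the complex. It had 33.4, 33.4 and 33.2 CPM in the CAG libraries, against 33.9 and 40.1 CPM in the PGK libraries. The CAG libraries were nearly identical and lay just below PGK replicate 1. This gene had the fewest counts of the 9, 143 to 195 per library, and the widest interval: the log2 fold change was -0.13 (95% interval -0.37 to 0.11; edgeR adjusted p = 0.386). It was -0.28 without PGK replicate 1 (edgeR adjusted p = 0.129) and -0.02 without PGK replicate 2 (edgeR adjusted p = 0.919).

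ZFP36L1 (ENSG00000185650), which binds AU-rich elements, had 57.4, 57.7 and 61.8 CPM in the CAG libraries, against 61.0 and 40.9 CPM in the PGK libraries. PGK replicate 1 lay within the CAG range and PGK replicate 2 well below it, at 0.671 times replicate 1, from 344 counts in replicate 1 and 146 in replicate 2. The log2 fold change was 0.17 (95% interval -0.06 to 0.40; edgeR adjusted p = 0.237). It was 0.52 without PGK replicate 1 (edgeR adjusted p = 0.000714) and -0.04 without PGK replicate 2 (edgeR adjusted p = 0.775). PGK replicate 2 was the higher PGK library for 7 of the 9 genes and the lower one for ZFP36L1 and PARN.

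ZFP36L2 (ENSG00000152518), the close relative of ZFP36L1, was listed at 0 in all 5 libraries. With 3 counts as the limit that a count of 0 allows, its level was at most 0.189 CPM over the CAG line and at most 0.326 CPM over the PGK line. These limits cover counting error only. Of the 20001 genes, 2715 (13.6%) had 0 counts in every library. Of the 10 rows nearest to that of ZFP36L2, 9 had at least 1 count, with up to 10704 counts over the 5 libraries. Whether the 0 reflects the gene's transcription or the way reads were counted was not tested, and no comparison of the lines was possible for it.

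**Figure D2:**
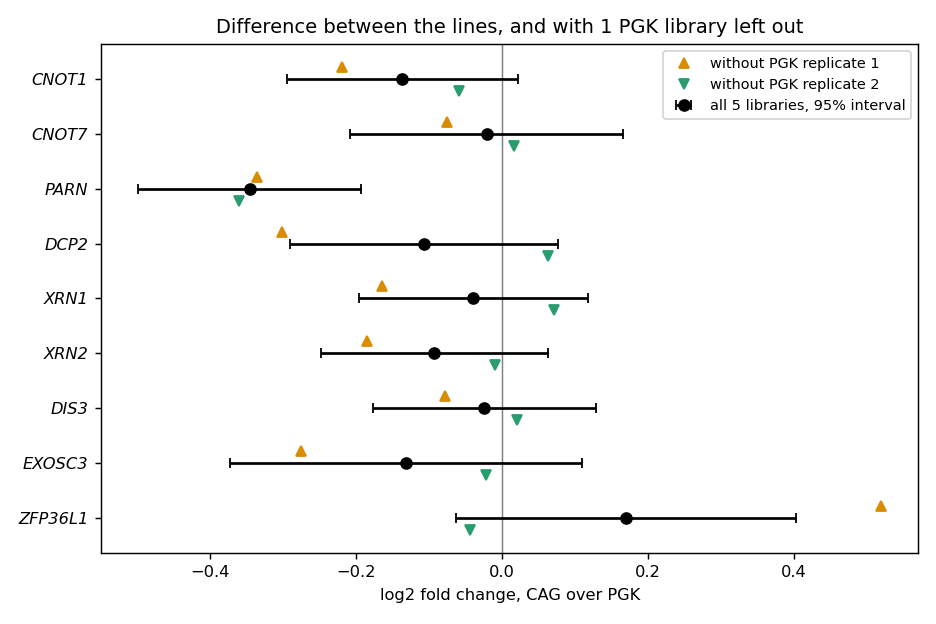
Log2 fold change of CAG over PGK for the 9 measured decay genes (horizontal axis), with all 5 libraries and the 95% interval (black), without PGK replicate 1 (upward triangles) and without PGK replicate 2 (downward triangles). The interval of PARN, -0.50 to -0.19, is the only one that does not reach 0, and ZFP36L1 moves between 0.52 and -0.04 with the PGK library left out.

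The intervals show the precision of the fit with all 5 libraries. Over the 8 genes that were not called, the 95% intervals of the CAG level ran from 0.772 times the PGK level at the lowest (EXOSC3) to 1.32 times at the highest (ZFP36L1). The standard error of a log2 fold change had a median of 0.08 over the 9 genes. The upper end rested on PGK replicate 1: without that library ZFP36L1 stood at 1.43 times the PGK level (edgeR adjusted p = 0.000714). A miss of the threshold does not show that transcription was equal.

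Lines whose libraries did not overlap were common in this comparison. The CAG libraries lay wholly below the PGK libraries for 3 of the 9 decay genes, PARN, CNOT1 and EXOSC3, and wholly above them for none. Among all tested genes 61.2% did not overlap between the lines and 30.4% lay wholly lower in the CAG line, beside which these 3 of 9 stand.

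**Figure D3:**
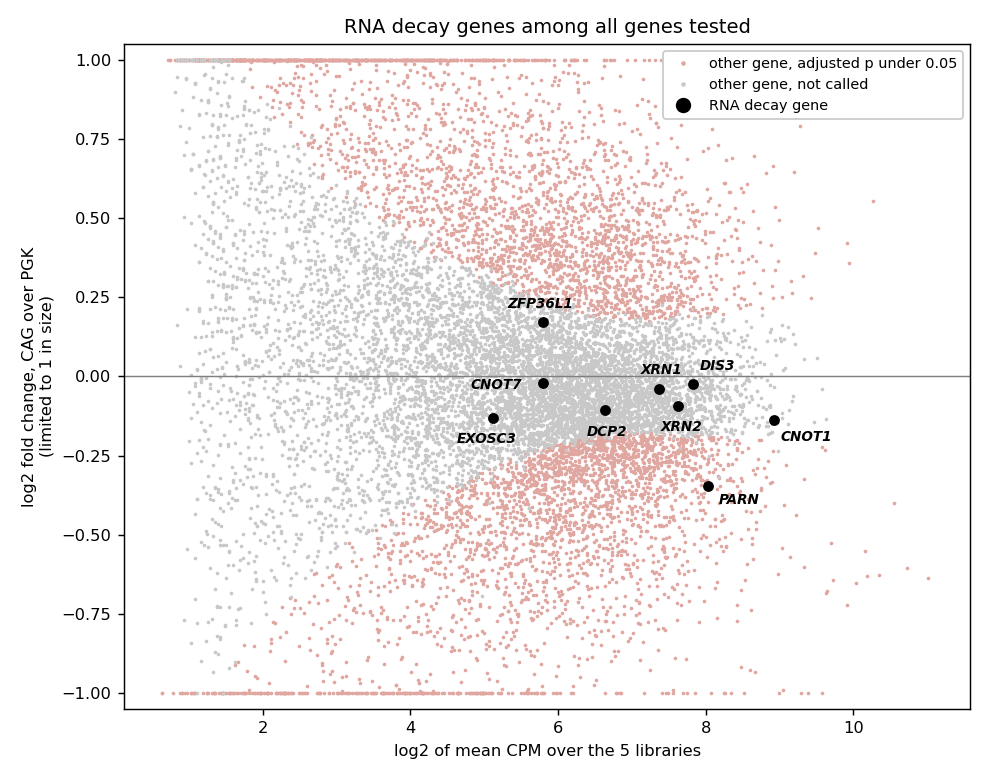
Log2 fold change of CAG over PGK (vertical axis, limited to 1 in size) against the log2 of the mean CPM over the 5 libraries for all 13400 tested genes, called (red) or not (grey), with the 9 decay genes in black. PARN lies among the called genes at -0.35 and the other 8 lie in the grey band around 0. The horizontal position is a counted level that is not corrected for gene length.

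Summed over the 9 measured genes, the level was 1525 ± 34.5 CPM in the CAG line (SD, n = 3) and 1664 ± 87.9 CPM in the PGK line (SD, n = 2). Every CAG library lay below both PGK libraries, the highest at 1560 CPM in the CAG line and the lowest at 1602 CPM in the PGK line. PARN and CNOT1 made the largest contributions to this difference. An exact two-sided permutation test gave p = 0.2, the smallest that 3 against 2 libraries allow and the value that any full separation gives. Among single tested genes 61.2% did not overlap between the lines. How often sums over 9 other genes separate the lines was not taken. Before scaling, the 9 genes took 0.151% to 0.156% of all counts in the CAG libraries, against 0.162% and 0.166% in the PGK libraries.

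Ratios of raw counts within a library do not depend on how libraries were scaled. They were formed after the levels had been seen, for 5 pairs of genes that act in the same or successive steps. The count of PARN per count of CNOT1 was 0.483, 0.516 and 0.517 in the CAG libraries, against 0.623 and 0.548 in the PGK libraries. Every CAG library was lower. The difference of the means, CAG minus PGK, was -0.0802, and it was -0.0428 without PGK replicate 1 and -0.118 without PGK replicate 2. The count of CNOT7 per count of CNOT1 was 0.119, 0.117 and 0.118 in the CAG libraries, against 0.112 and 0.107 in the PGK libraries, so that every CAG library was higher. The ratios of XRN1 to XRN2, DCP2 to XRN1 and EXOSC3 to DIS3 overlapped between the lines. In exact two-sided permutation tests p was 0.2 for the first 2 ratios and 0.4 for the other 3. Any full separation gives 0.2, the smallest possible, and adjusted over the 5 ratios all were 0.4. Separation was common in this comparison, with 61.2% of single tested genes not overlapping between the lines. The share of other gene pairs whose ratios separate was not taken.

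The row order of the table followed the chromosomes for these genes. From ZFP36L2 at row 2289 to XRN2 at row 18042, the 10 genes stood in the order of chromosomes 2, 3, 5, 8, 9, 13, 14, 16, 16 and 20, as the RefSeq annotation places them. Neighbouring tested rows were therefore described beside each gene, with the median taken over 10 tested rows on each side.

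PARN, on chromosome 16, had neighbours with a median log2 fold change of -0.13. Of these 20 rows, 7 were called lower in the CAG line and 0 higher, where 20.7% of all tested genes were called lower. With 25 rows on each side, 12 of 50 were called lower and 4 higher, and the median was -0.07. The nearest 2 rows on each side stood at -0.22, -0.23, -0.21 and -0.27, and all 4 were called. PARN lay 0.22 below its neighbours' median, and 1 of the 20 neighbours lay lower than PARN. When the level of the neighbours was taken out in the fit, a setting added after the data had been seen, PARN stood at -0.22 with an edgeR adjusted p of 0.0306. The neighbours' median entered that fit as a fixed number. This p therefore leaves out the spread of the neighbours, -0.91 to 0.73, and does not test PARN against them. PARN minus its neighbours' median moved with the number of rows used, between -0.13 with 5 rows on each side and -0.27 with 25. CNOT1 is on the same chromosome, where the median of its neighbours was 0.07.

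DIS3, on chromosome 13, lay below the median of its neighbours. These 20 rows had a median log2 fold change of 0.24, and DIS3 itself stood at -0.02, which is 0.26 below it. Of the 20 rows, 12 were called higher and 2 lower, where 3046 of all 13400 tested genes were called higher. With 25 rows on each side, 26 of 50 were called higher and 5 lower, and the median was 0.22. Most of those called higher came before DIS3 in the row order. A median over both sides therefore does not describe either side alone. The nearest row on each side stood at 0.02 and -0.13, close to DIS3, and neither was called. The next ones stood at 0.18 and 0.74 and were called. With the neighbours' median taken out as a fixed number, DIS3 stood at -0.26 with an edgeR adjusted p of 0.0104. This p leaves out the spread of the neighbours, -0.31 to 1.08, and so does not test DIS3 against them. In that fit 2 decay genes and 26.2% of all tested genes were called. ZFP36L1, on chromosome 14, lay 0.24 above the median of its neighbours, which was -0.07. ZFP36L1 minus its neighbours' median was 0.60 without PGK replicate 1 and -0.02 without PGK replicate 2. EXOSC3, on chromosome 9, had 8 of 20 neighbours called lower and none higher, and lay within 0.02 of their median of -0.11. XRN1, XRN2 and CNOT7 also lay within 0.04 of their neighbours' medians with 10 rows on each side. These differences moved with the number of rows. With 5 rows CNOT7 stood at -0.21 relative to its neighbours, EXOSC3 and XRN2 at -0.10 each and XRN1 at 0.02. With 25 rows CNOT7 stood at 0.09, EXOSC3 at -0.08, XRN2 at -0.03 and XRN1 at -0.01. With 1 library left out, the difference from the neighbours ran from -0.08 to 0.12 for CNOT7, from -0.09 to 0.08 for EXOSC3 and from -0.10 to 0.04 for XRN2. CNOT1 stood at -0.20 relative to its neighbours (-0.22 to -0.14 with 1 library left out), at -0.12 with 5 rows and at -0.16 with 25. DCP2 stood at -0.16, with -0.29 without PGK replicate 1 and 0.01 without PGK replicate 2, so that its direction was not settled. With 5 rows DCP2 stood at -0.07 and with 25 rows at -0.04.

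**Figure D4:**
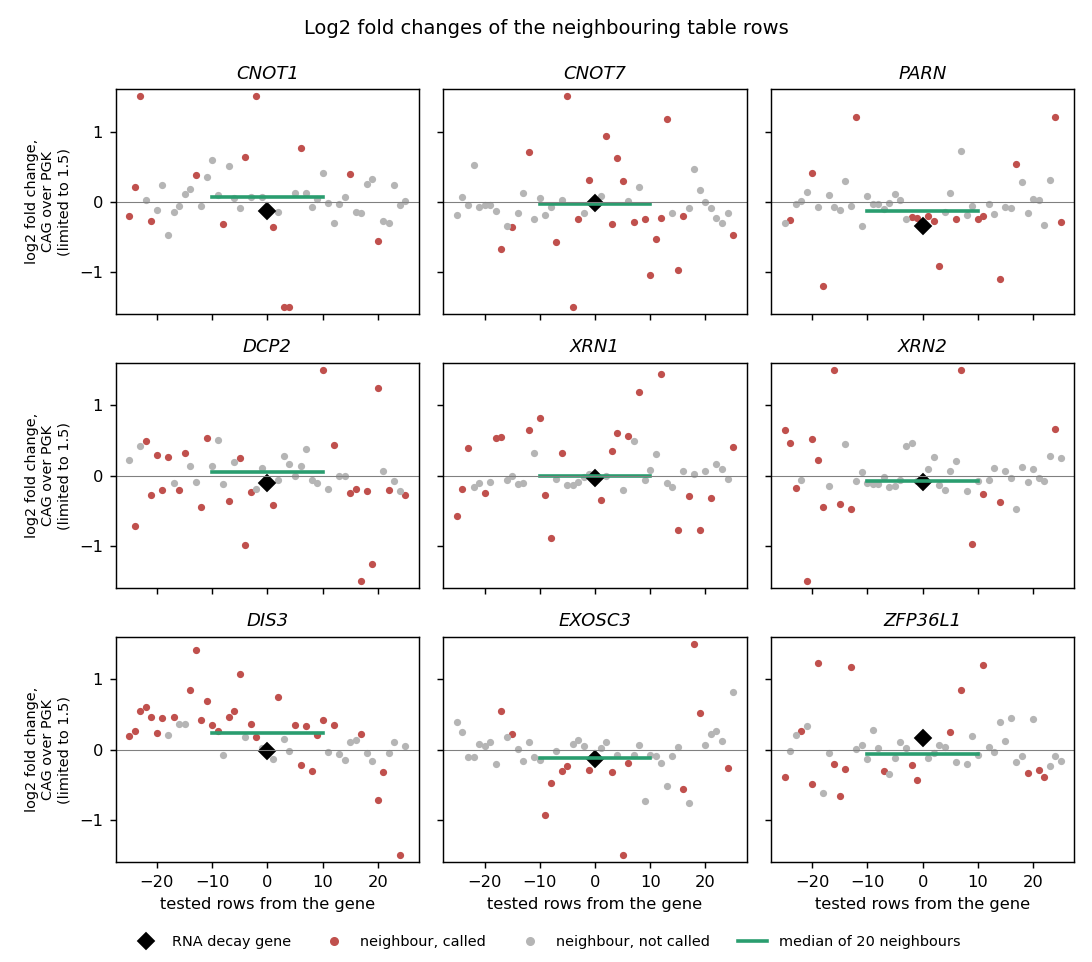
Log2 fold changes of CAG over PGK (vertical axis, limited to 1.5 in size) in the 25 tested rows on each side of each decay gene (horizontal axis, in tested rows from the gene), with the gene as a black diamond, called neighbours in red and the median of the nearest 20 as a green line. That median lies at -0.13 around PARN and at 0.24 around DIS3, and DIS3 lies 0.26 below it.

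The tested genes whose profile over the 5 libraries was most like that of PARN were sought among 12110 genes averaging 5 CPM or more, by the root mean square difference of log2 CPM centred on the gene's mean. The nearest was ENSG00000164465, at a root mean square difference of 0.0124. It had 86.2, 88.6 and 93.6 CPM in the CAG libraries, against 115 and 114 CPM in the PGK libraries, a log2 fold change of -0.36. The next was ENSG00000144034, at 0.0166, with a log2 fold change of -0.37. The measure rests on 5 libraries, and the files do not pair these identifiers with names. Of the other decay genes the nearest to PARN was CNOT1, at 0.123, and the farthest ZFP36L1, at 0.332. The measure takes in the difference between the lines, by which PARN was chosen. Such distances therefore do not separately show that the other decay genes differ from PARN. A typical distance over all genes was not taken.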

How the data were processed

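PRO-seq of 5 HEK293T libraries was analysed, 3 with a CAG and 2 with a PGK landing pad, grouped by sample title. The authors deposited raw counts, 1 value per Ensembl identifier and library. The submitters' processing notes name hg19 and the tools featureCounts 2.0.3, UMI-tools, HISAT2 2.2.1, Bowtie2 2.5.1, cutadapt and fastp 0.23.2, without their roles. How reads were assigned (annotation, strand, counted part of a gene) was not given in the sources used here, and reads of overlapping or antisense genes may not have been kept apart.

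Of 20019 rows, 18 without an identifier were left out (at most 0.000448% of a library). Genes were kept by filterByExpr (minimum count 10, minimum total 15), scaled by TMM and tested with edgeR 4.0.16 in R 4.3.3, CAG over PGK, with no covariate. A standard error was the absolute log2 fold change divided by the square root of F, and 95% intervals used the fit's degrees of freedom. Log2 CPM used a prior count of 2.

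All 10 genes are named, with the likeness rule applied to the called gene with the largest change. The members and lists were chosen with earlier results of these data known. Lists of other decay genes and of cell type markers were not analysed here, because no table used here pairs symbols with Ensembl identifiers. Alternatives were other scalings (upper-quartile, DESeq2 size factors), other filters, DESeq2 1.42.0, limma-trend (limma 3.58.1), glmTreat, the replicate number as a block and leaving out each library.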

Additional observations from a re-analysis of the deposited data

Results flagged for a closer look

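In 18 rows that name no gene, 95 counts were found over the 5 libraries. These rows were not used in the comparison and held at most 0.000448% of a library. No line had 4 libraries, so no test for a library standing apart within a line was made.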

How the results depend on the processing

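PARN kept its direction under all 15 alternatives and an adjusted p under 0.05 in 14 of them, with log2 fold changes from -0.37 (replicate block) to -0.22 (neighbouring rows' level taken out). The exception was glmTreat against a log2 fold change of 0.5, a stricter hypothesis, with 0 decay genes (0 at an unadjusted p under 0.05) and 1145 genes in all. No decay gene could pass it, as PARN, with the largest change, stood at -0.35. Among the 14, the fit with the neighbours' level taken out does not test PARN against its neighbours. With 1 library left out, 1 to 5 decay genes and 4754 to 5689 of all genes were called, and 5 decay genes without PGK replicate 1. Taking out the neighbouring rows' level, chosen after seeing the data as were DESeq2 on the genes tested by edgeR and the ratios, gave 2 decay genes and 3517 of all genes. PARN minus its neighbours was -0.13 with 5 rows and -0.27 with 25 rows on each side, and -0.27 to -0.17 with 1 library left out. Some genes that were not called changed sign. CNOT7 stood at 0.0022 with upper-quartile factors, 0.0058 without CAG replicate 2 and 0.012 with the neighbours' level taken out, and between -0.076 and 0.016 with 1 library left out. DIS3 stood at 0.0019 with upper-quartile factors, 0.00076 without CAG replicate 2, and between -0.078 and 0.021 with 1 library left out. The range with 1 library left out was -0.301 to 0.063 for DCP2, -0.164 to 0.072 for XRN1 and -0.044 to 0.520 for ZFP36L1. The 2 ends came from leaving out PGK replicate 1 or PGK replicate 2. The cause was not tested. With the replicate number as a block, 1 decay gene (PARN) and 4667 of all genes were called. Deviations from the line means correlated at 0.04 between the first replicates and at -0.07 between the second ones, and the labels name no shared batch, so these were not treated as pairs. The other alternatives called PARN alone. DESeq2 called a smaller share of all genes, 4054 of the 13400 tested by edgeR and 3943 of the 17286 with a count. The pathway lists gave no value under any setting. Of the 9 tested decay genes, EXOSC3 had the fewest counts and the largest standard error (0.12), close to that of ZFP36L1 (0.11).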
